A study of Mus musculus with 5 samples.

Results

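Otx2, Fgf5, Pou3f1, Sox3, Sall2 and Foxd3, 6 genes associated with the formative epiblast, were followed on 5 arrays of mouse embryonic stem cells. The growth protocol names them E14 cells, a stem cell line, whereas another label gives E14 as an embryonic stage. These 6 genes were among 18193 measured, and 9 probe sets carried 1 of their symbols. Each gene was read from the brightest of its probe sets, by the mean of all 5 arrays, and Fgf5, Pou3f1 and Sox3 each had another probe set as a check. The genes were chosen for their Trip12 mutant minus WT differences in these same arrays, so those differences are given as a description, with no test on any of the 6.

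The formative state is the pluripotent state that embryonic stem cells pass through between the naive state of the preimplantation embryo and the primed state of the postimplantation epiblast. The homeodomain factor Otx2 and the POU factor Pou3f1 act at enhancers that open in this transition, the secreted ligand Fgf5 is its usual marker, and FGF, Nodal and activin signals promote it. Sox3 is a SoxB1 factor related to Sox2, Sall2 a zinc finger factor, and Foxd3 a forkhead factor needed for the pluripotent epiblast and later for neural crest.

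Of the 5 arrays 2 held WT cells and 3 held cells with both copies of Trip12 mutated (Trip12 mut/mut), called mutant arrays 1 to 3 here after their replicate numbers; Trip12 is a ubiquitin ligase of the HECT type. All cells grew on mouse embryo fibroblast feeders in medium with serum replacement, some fetal bovine serum and leukaemia inhibitory factor, which favours the naive state. What the mutation is, whether the mutant cells were 1 clone or several, and whether feeders were removed before RNA extraction are points not given in the sources used. The samples are named biological replicates, but nothing says that they came from separate cultures, so the spread between them may be technical.

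The array labelled mutant 1 lay with the WT arrays. Its SD of differences from them over all probe sets was 0.12 on the log2 scale, as between the 2 WT arrays, and no probe set (0) was more than 2-fold apart. Mutant arrays 2 and 3 were more than 2-fold away from a WT array at 293 to 545 probe sets. Trip12 itself, by its brightest probe set, read 10.17 and 10.25 in WT, 10.18 on the array labelled mutant 1, and 12.09 and 12.57 on mutant arrays 2 and 3. Without knowing where the mutation lies, this signal does not settle a label. Each result is therefore given over all 5 arrays and without that array.

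Sequence before the start sites was printed for the members with the largest differences, Otx2 and Fgf5, and for the one with the smallest, Foxd3. It comes from RefSeq (GRCm38.p6), whose promoter table held 4 of the 6 genes with 8 start sites, 4 of them for Otx2. Pou3f1 and Sox3 had no entry. Each stretch is the 250 bases before a start, 5′ to 3′ on the gene's strand. In the Otx2 stretch, chr14:48665110-48665359 on the minus strand, the capitals mark GGATTA, the core letters that Otx homeodomains bind. In the Fgf5 stretch, chr5:98253934-98254183 on the plus strand, and the Foxd3 stretch, chr4:99656049-99656298 on the plus strand, they mark CG dinucleotides.
Otx2: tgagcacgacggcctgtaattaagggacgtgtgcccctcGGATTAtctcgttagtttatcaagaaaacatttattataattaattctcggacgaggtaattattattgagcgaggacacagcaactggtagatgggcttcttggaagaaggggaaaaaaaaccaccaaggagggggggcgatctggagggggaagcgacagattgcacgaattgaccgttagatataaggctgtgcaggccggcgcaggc
Fgf5: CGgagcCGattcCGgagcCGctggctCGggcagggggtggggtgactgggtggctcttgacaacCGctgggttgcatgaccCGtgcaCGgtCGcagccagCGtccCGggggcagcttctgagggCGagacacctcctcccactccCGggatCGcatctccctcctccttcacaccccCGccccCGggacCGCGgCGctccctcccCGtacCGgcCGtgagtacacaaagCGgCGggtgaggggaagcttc
Foxd3: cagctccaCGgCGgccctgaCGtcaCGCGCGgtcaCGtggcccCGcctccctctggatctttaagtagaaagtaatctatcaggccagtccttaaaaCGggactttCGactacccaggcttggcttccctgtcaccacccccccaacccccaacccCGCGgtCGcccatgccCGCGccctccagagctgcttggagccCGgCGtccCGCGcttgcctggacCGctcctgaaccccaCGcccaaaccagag

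GGATTA or its reverse complement TAATCC occurred in 1 of the 8 windows, that Otx2 stretch, where it begins 211 bases before the start. It occurred in 6.25% of all 32851 windows of this length. Of the Otx2 windows, only the matching one was printed. The octamer ATGCAAAT of POU factors, found in 1.6% of all windows on either strand, and the SOX core CATTGT, found in 10.7%, occurred in 0 of the 8. The Fgf5 window held 24 CG dinucleotides and the Foxd3 window 21, against a median of 6 over all windows. The Otx2 stretch held 14, the other 3 Otx2 windows 6, 8 and 9, and the Sall2 windows 0 and 6. The Otx2 windows with 6 and 8 overlap, so their counts share bases. The array does not tell which of the Otx2 starts was used, and a match of letters is not a bound site.

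Fgf5 and Otx2 had the largest differences of the 6, Pou3f1 a smaller one, Sall2 and Sox3 small ones, and Foxd3 almost none. The values are RMA values on the log2 scale, so a difference of 1 is 2-fold. The median difference of the 6 was -0.61 over all 5 arrays and -0.95 without the array labelled mutant 1, against 0.02 in each case over all 18193 genes. In RNA of a whole culture, fewer cells of a type and less RNA per cell cannot be told apart.

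**Figure D1:**
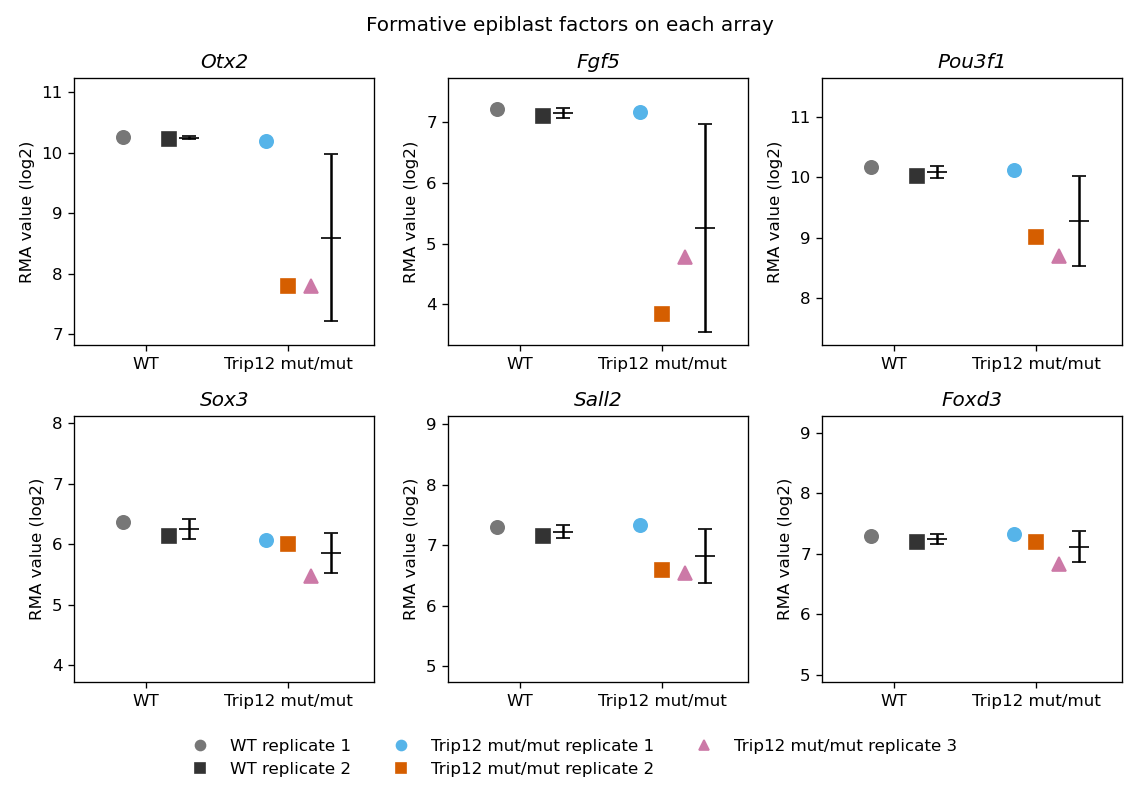
RMA values (log2) of the 6 genes on each of the 5 arrays, 1 panel per gene, each with an axis of the same length; points are arrays, and the horizontal mark with its bar is the group mean ± SD (2 WT, 3 Trip12 mut/mut). The array labelled mutant 1 sits near WT in every panel, while Otx2 reads 7.80 and 7.79 and Fgf5 3.83 and 4.78 on mutant arrays 2 and 3.

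Fgf5, the ligand, read 7.22 and 7.10 on the WT arrays, 7.17 on the array labelled mutant 1, 3.83 on mutant array 2 and 4.78 on mutant array 3. The array labelled mutant 1 lay between the WT arrays, and the other mutant arrays lay far below both. The WT mean was 7.16 ± 0.08 (SD, n = 2) and the mutant mean 5.26 ± 1.72 (SD, n = 3), a difference of -1.90. Without the array labelled mutant 1 the difference was -2.85. The readings of mutant arrays 2 and 3 lay under 5.52, the median of all probe sets, and RMA gives no detection call. They are not shown to be above background, so no fold is given and their gap of 0.94 is not read. The gene passed the filter on dim probe sets only through the arrays where it was high.

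The other Fgf5 probe set was dim on every array. It read 4.76 and 4.49 in WT, 4.62 on the array labelled mutant 1, and 4.23 and 3.96 on mutant arrays 2 and 3. It was lower on the same 2 arrays, by 0.53 on the log2 scale against the WT mean. The size of the Fgf5 difference therefore rests on 1 probe set.

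Otx2, the homeodomain factor, read 10.26 and 10.23 in WT, 10.18 on the array labelled mutant 1, and 7.80 and 7.79 on mutant arrays 2 and 3. All 3 mutant arrays lay below both WT arrays, the first by a margin of the size of the gap between the WT arrays. Mutant arrays 2 and 3 differed by 0.01 on the log2 scale, the smallest gap among the 6 genes, and stayed above the median of all probe sets. The mutant mean of 8.59 ± 1.38 (SD, n = 3) stood against a WT mean of 10.24 ± 0.02 (SD, n = 2), a difference of -1.65. Without the array labelled mutant 1 the difference was -2.45, or 5.46-fold lower.

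Ordered from the largest decrease over all genes, Otx2 was number 3 of 18193, both with and without the array labelled mutant 1. Pou3f1 was number 57 over all 5 arrays and number 54 without that array. These ranks describe the values the genes were chosen on.

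Pou3f1, the POU factor, read 10.17 and 10.03 in WT, 10.11 on the array labelled mutant 1, 9.02 on mutant array 2 and 8.70 on mutant array 3. The difference was -0.82 over all 5 arrays. Without the array labelled mutant 1 it was -1.24, or 2.36-fold lower, against WT 10.10 ± 0.10 (SD, n = 2). Its other probe set read 7.90 and 8.10 in WT, 7.82 on that array, and 6.86 and 6.69 on mutant arrays 2 and 3. That difference was -1.22 without the array labelled mutant 1, or 2.34-fold lower. Both Pou3f1 probe sets therefore gave nearly the same size.

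Sall2, the zinc finger factor, read 7.30 and 7.14 in WT, 7.34 on the array labelled mutant 1, and 6.59 and 6.53 on mutant arrays 2 and 3. The array labelled mutant 1 was the highest of the 5, and the other mutant arrays were 1.54-fold and 1.61-fold lower than the WT mean. Over all 5 arrays the difference was -0.40, and -0.66 without the array labelled mutant 1. Sall2 had 1 probe set.

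Sox3, the SoxB1 factor, read 6.37 and 6.13 in WT, 6.08 on the array labelled mutant 1, 6.01 on mutant array 2 and 5.48 on mutant array 3. All 3 mutant arrays lay below both WT arrays, but the gap between the WT arrays, 0.23, was about as large as the difference on mutant array 2, -0.24. Mutant array 3 was farther below, at -0.77, but its reading lay under 5.52, the median of all probe sets. That reading is not shown to be above background. The other Sox3 probe set was dim and flat, with 4.43 and 4.42 in WT, 4.51 on the array labelled mutant 1 and 4.43 on both mutant arrays 2 and 3. The mean difference of Sox3 was -0.39 over all 5 arrays and -0.50 without the array labelled mutant 1.

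Foxd3, the forkhead factor, read 7.30 and 7.19 in WT, 7.33 on the array labelled mutant 1, 7.19 on mutant array 2 and 6.83 on mutant array 3. The groups overlapped with and without the array labelled mutant 1, and mutant array 2 equalled the lower WT array. The difference was -0.13 over all 5 arrays and -0.23 without that array. By its values Foxd3 did not share the pattern of Otx2, Fgf5 and Pou3f1.

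Over all 5 arrays, 2 of the 6 genes, Otx2 and Sox3, lay lower on every mutant array than on both WT arrays, where 6.29% of all genes did. On mutant arrays 2 and 3 alone, 5 of the 6 did, where 17.5% of all genes did. Leaving out WT replicate 2 in place of a mutant array raised the count over all mutant arrays to 4. Over all 5 arrays 2 of the 6 were lower by at least 1 on the log2 scale, against 0.181% of all genes, and without the array labelled mutant 1 it was 3 of the 6, against 0.544%. The choice of the genes fixed these counts, and nothing is read from them.

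**Figure D2:**
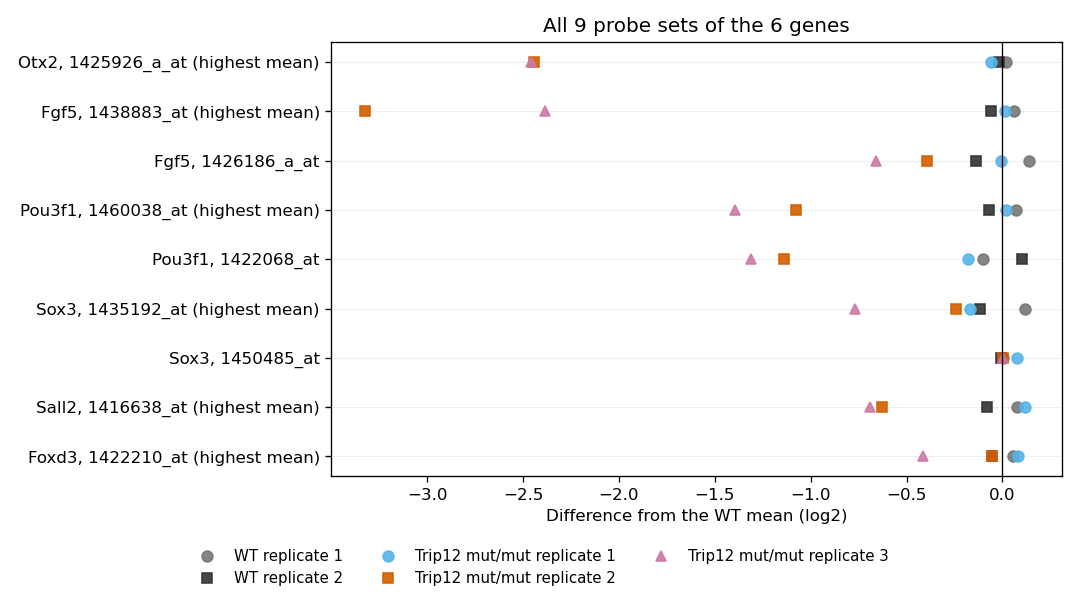
Difference of each array from the WT mean (log2) for all 9 probe sets of the 6 genes, with the probe set of the highest mean per gene marked. Both Pou3f1 probe sets shift alike, by -1.24 and -1.22 over mutant arrays 2 and 3, whereas the dim probe sets of Fgf5 and Sox3 shift by -0.53 and 0.01.

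Limma, which fits each gene and shares variances across genes, passed 0 of 18193 genes (0.0%) over all 5 arrays at a Benjamini-Hochberg adjusted p of 0.05, with 214 genes (1.18%) below an unadjusted 0.05. The smallest adjusted p was 0.748. Without the array labelled mutant 1, and with dim probe sets removed, 539 of 11626 genes passed (4.64%), 156 lower (1.34%) and 383 higher (3.29%). That array was set aside for its values, so these p-values are too favourable. With no filter on dim probe sets 0 genes passed over these 4 arrays, and with array weights 0 passed. The calls also hung on both WT arrays: 0 genes passed without WT replicate 1 and 0 without WT replicate 2. "Fell" and "rose" below refer to this comparison of 4 arrays, in which the gene lists were read.

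Other genes of the formative and postimplantation epiblast were lower on mutant arrays 2 and 3, beside a higher fibroblast marker mean there. Of 25 listed genes 24 were measured and 22 tested. Of the 22, 10 fell and 0 rose, where 1.34% of all tested genes fell and 3.29% rose. Over all 5 arrays 0 passed. The 24 measured genes had a median difference of -0.53 over all 5 arrays and -0.73 without the array labelled mutant 1. The median over all genes was 0.02 in both cases. The list mean was 9.18 on both WT arrays, 9.15 on the array labelled mutant 1, and 8.48 and 8.41 on mutant arrays 2 and 3. The list was written with earlier results of these arrays known, so its direction is not independent evidence. Lower values were not confined to it. Outside it, the keratin Krt8 differed by -2.04 and the tight junction gene Cldn7 by -2.35 on mutant arrays 2 and 3. No list of epithelial genes was read.

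Lef1, a nuclear mediator of Wnt signals, fell by 2.06 on the log2 scale (SE 0.10, limma adjusted p = 0.0341). It read 9.51 and 9.38 in WT, 9.45 on the array labelled mutant 1, and 7.47 and 7.29 on mutant arrays 2 and 3. Fgf15, a secreted FGF, fell by 1.54 (SE 0.09, limma adjusted p = 0.0391). The DNA methyltransferase genes Dnmt3b and Dnmt3a, which set new methylation in the epiblast, fell by 1.69 (limma adjusted p = 0.0413) and 1.03 (limma adjusted p = 0.042). The zinc finger factors Zic2 and Zic5 were 3.76-fold and 2.81-fold lower, the epithelial factor Grhl2 2.83-fold, the claudin Cldn6 2.88-fold, the keratin Krt18 2.43-fold and the chromatin factor Utf1 1.74-fold. Zic5, Grhl2, Cldn6, Krt18, Utf1 and Zic2 were named to complete the count, after their values were seen. As labelled, over all 5 arrays, each of these 10 had an adjusted p of 0.748.

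Not every gene of the list was lower. Dnmt3l, a cofactor of the same methyltransferases, read 10.87 and 10.91 in WT and 11.31 and 11.49 on mutant arrays 2 and 3, and did not pass (difference 0.51, limma adjusted p = 0.0622). The ETS factors Etv4 and Etv5, which respond to FGF signals, differed by 0.04 and -0.09. Cdh2, the neural cadherin, differed by 0.52 and Sox4 by 0.43, and neither passed. These genes were named after their values were seen.

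**Figure D3:**
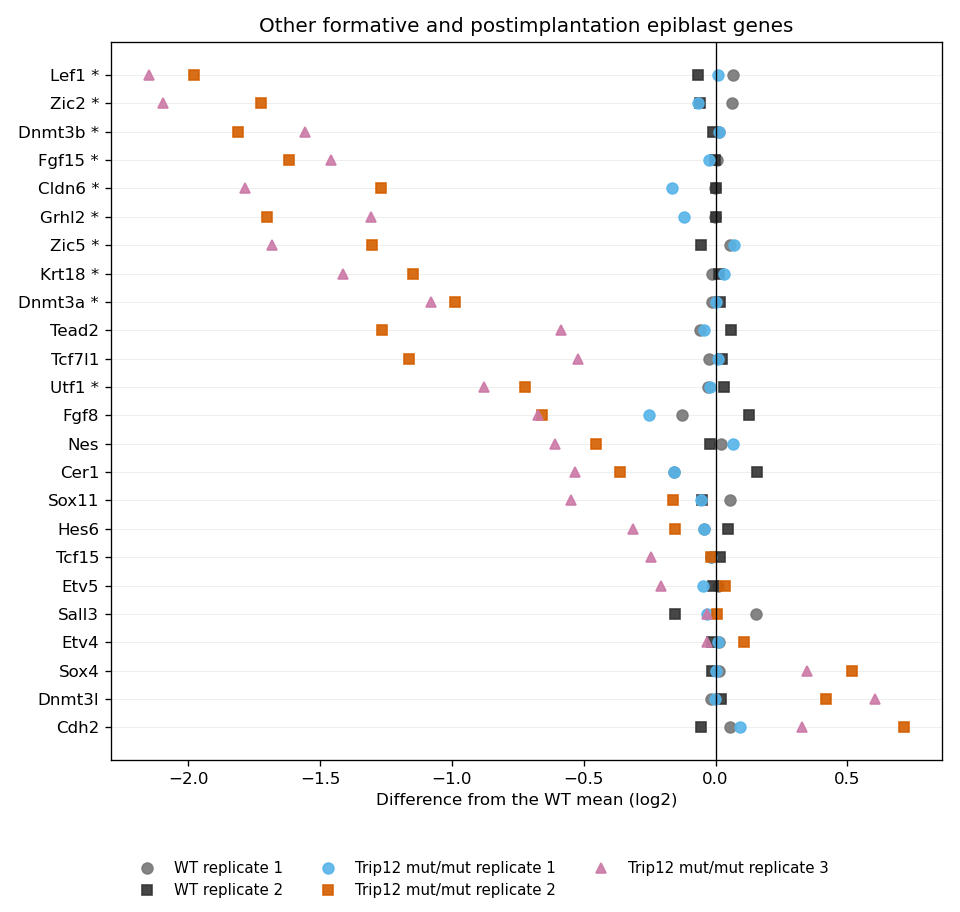
Difference of each array from the WT mean (log2) for the 24 measured genes of the formative and postimplantation epiblast list, ordered by the mean difference of mutant arrays 2 and 3; an asterisk marks the 10 genes that passed limma over 4 arrays with dim probe sets removed. Both WT arrays and the array labelled mutant 1 cluster at 0, and Lef1 is the farthest to the left at -2.06.

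Genes of the signals that drive the transition were read as 2 lists. Of 13 measured FGF and ERK pathway genes 0 passed in either direction, and their median without the array labelled mutant 1 was -0.09. The smallest adjusted p in that list belonged to the adaptor gene Grb2 (difference 0.43, limma adjusted p = 0.053) and the feedback phosphatase gene Dusp4 (0.73, 0.0607). With quantile normalisation or centred array medians 2 genes of the list rose, and with the mean of probe sets 3. Fgf4, the main FGF ligand of embryonic stem cells, differed by -0.19 and the feedback phosphatase gene Dusp6 by 0.01. These 4 genes were named after their values were seen. Of 13 Nodal and activin pathway genes 2 fell and 0 rose, where 1.34% of all tested genes fell and 3.29% rose. Lefty1 and Lefty2, secreted inhibitors and targets of Nodal, fell by 0.94 and 0.70 (limma adjusted p = 0.042 for each). Nodal itself read 10.50 and 10.54 in WT and 11.13 and 10.95 on mutant arrays 2 and 3, and did not pass (limma adjusted p = 0.059).

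Genes of the naive state did not move one way. Of 16 tested 1 fell and 2 rose, where 1.34% of all tested genes fell and 3.29% rose. The list median without the array labelled mutant 1 was 0.09. Dppa3, a maternal and germline factor, fell by 2.10 (limma adjusted p = 0.0243), whereas Pecam1, a surface marker of naive cells, rose by 0.82 (0.0428) and Tcl1 by 0.55 (0.0467). Mutant arrays 2 and 3 lay below both WT arrays for 2 of the 16 genes, where 17.5% of all genes did. They lay above both for 6 of the 16. The share of all genes above both was not computed, so nothing is read from that count. Tbx3 differed by 0.68, Esrrb by 0.57, Tfcp2l1 by 0.46, Klf5 by 0.40, Nanog by -0.17 and Klf2 by less than 0.01; none of them passed, and they were named after their values were seen. Of 12 core pluripotency genes 11 were tested and 1 fell, the RNA-binding factor Lin28a, by 0.97 (limma adjusted p = 0.0422). Pou5f1, the POU factor that acts with Otx2, read 12.45 and 12.48 in WT and 12.42 and 12.25 on mutant arrays 2 and 3, and Sox2 differed by -0.18. L1td1 differed by -0.63, Sall4 by -0.50 and Dppa4 by -0.32. On mutant arrays 2 and 3, 8 of the 12 lay lower than on both WT arrays, where 17.5% of all genes did. The 8 include Lin28b, which was under 5.52, the median of all probe sets, on every array and was not tested. They also include Pou5f1 and Tdgf1, with differences of only -0.13 and -0.10. This list too was written with earlier results of these arrays known. Apart from Lin28a, these core genes were named after their values were seen.

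Paralogs of the 6 genes were mostly dim. Of 20 measured, 6 had a mean over the WT arrays above the median of all probe sets, and their median difference over mutant arrays 2 and 3 was 0.19. None of these 6 fell. Fgf7, an FGF of mesenchymal cells, rose by 0.60 (limma adjusted p = 0.0436), from 10.00 and 10.06 in WT to 10.61 and 10.65. Fgf18 differed by 0.68, Fgf1 by 0.25 and Fgf17 by -0.26, and none of these passed. Sall1 differed by -0.08 and Sox21 by 0.14. The closest relatives Otx1, Pou3f2 and Sox1 had WT means below that median and differed by -0.04, -0.03 and -0.005. The mean of the fibroblast markers was higher on the arrays where Fgf7 rose.

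Fibroblast markers, those of the feeder cells, had a higher mean on mutant arrays 2 and 3. Averaged over 23 genes, the WT arrays stood at 10.40 and 10.41, with 10.39 on the array labelled mutant 1, and 10.89 on both mutant arrays 2 and 3. Of 23 tested 6 rose and 0 fell, where 3.29% of all tested genes rose and 1.34% fell. The list median without the array labelled mutant 1 was 0.53. The inhibitor of metalloproteinases Timp3 rose by 1.28, the mesenchymal factors Twist2 and Prrx1 by 0.90 and 0.66, and the collagen Col5a1 by 0.75. Not every marker was higher. Col1a1 differed by 0.12, Tagln by 0.11, Pdgfra by 0.02, Lum by 0.01 and Mmp2 by -0.15. None of these passed, and they were named after their values were seen. All 23 had a WT mean above the median of all probe sets, so no marker was near the lower end of the scale on the WT arrays. The fibroblast part in the lower epiblast genes was not tested.

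Of the markers of other lineages, many were dim. Of 11 neuroectoderm genes 5 were tested. Hesx1, a factor of the anterior epiblast and forebrain, fell by 0.71 and Zic1 rose by 1.23 (limma adjusted p = 0.042 for each), and Sox1, a marker of the neural plate named after its value was seen, differed by -0.005. Hesx1 lay above the median of all probe sets only on the WT arrays and the array labelled mutant 1, and so passed the filter only where it was high. Of 10 neural crest genes 6 were tested and 0 passed, and their list averaged 6.04 and 6.03 in WT and 6.02 on the array labelled mutant 1, then 6.29 and 6.22 on mutant arrays 2 and 3. Of 12 primitive and visceral endoderm genes 7 were tested and 0 passed. Of 9 primitive streak and mesoderm genes 3 were tested and 0 passed. Of 8 trophoblast genes 4 were tested and the keratins Krt8 and Krt7 fell (differences -2.04 and -0.78). Over all tested genes 1.34% fell and 3.29% rose.

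**Figure D4:**
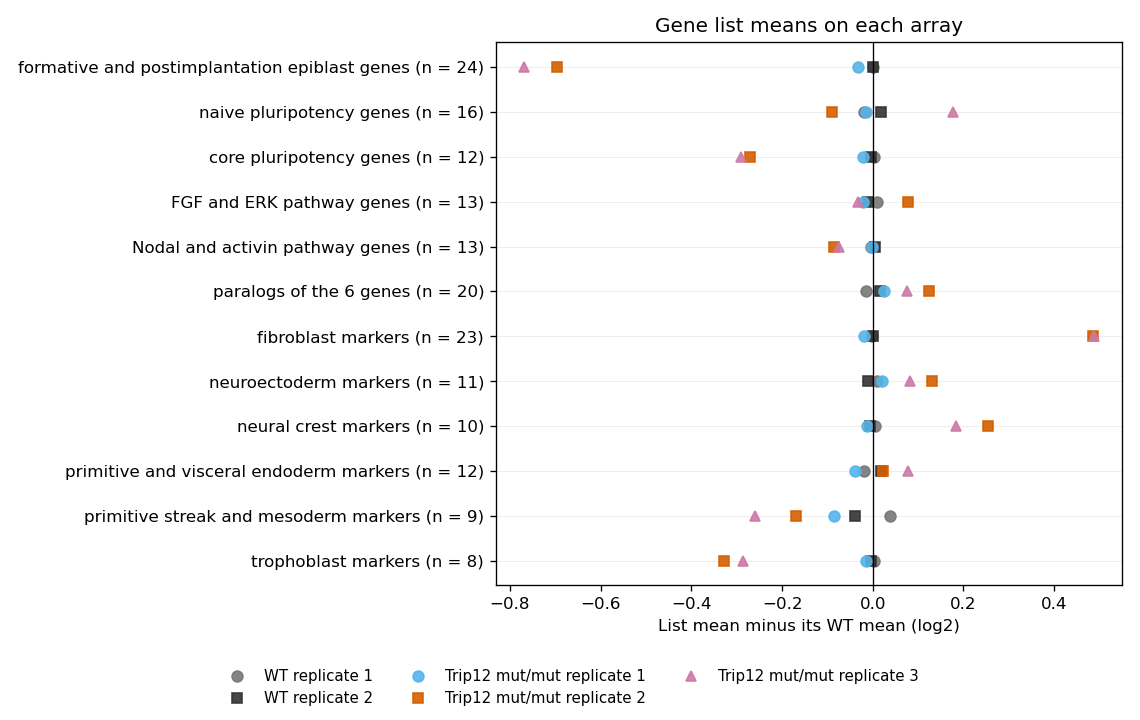
Mean of each gene list on each array minus its mean over the WT arrays (log2), with the number of measured genes per list. Formative and postimplantation epiblast genes lie at -0.70 and -0.77 on mutant arrays 2 and 3 and fibroblast markers at 0.48 and 0.49, whereas the array labelled mutant 1 stays within 0.09 of WT for every list.

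The genes whose profiles over the 5 arrays lay nearest to those of Otx2, Fgf5 and Pou3f1 were ranked by Euclidean distance between log2 differences from the WT mean, among genes with a WT mean above the median of all probe sets. The 5 nearest to Otx2 were the fibronectin type III gene Fndc3c1 (distance 0.15), the tight junction gene Cldn7 (0.15), the carbonic anhydrase gene Car4 (0.29), the insulin receptor substrate gene Irs4 (0.44) and Dppa3 (0.50). Fgf5 came at place 18 and Pou3f1 at place 52. Genes were kept for this ranking by their WT mean alone. On mutant arrays 2 and 3 Car4 read 4.94 and 5.18 and Irs4 4.08 and 3.70, under that median, and Fgf5 lay under it too. Those readings are not shown to be above background.

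Nearest to Fgf5 were the neurofilament gene Nefm (distance 0.57), Otx2 (0.89), Car4 (0.92), Fndc3c1 (0.99) and Cldn7 (1.03). Nefm read 9.15 and 9.18 in WT, 9.09 on the array labelled mutant 1, and 6.00 and 6.25 on mutant arrays 2 and 3. The Fgf5 readings on mutant arrays 2 and 3 lay under 5.52, the median of all probe sets. They are not shown to be above background. The distances to Fgf5 rest on those readings, so no likeness of profile is read from them.

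Nearest to Pou3f1 were the tight junction gene Ocln (distance 0.13), Krt18 (0.14), the ectonucleotidase gene Enpp3 (0.16), the angiomotin gene Amot (0.16) and Uba1y, a ubiquitin-activating enzyme gene (0.21). Ocln read 6.93 and 6.92 in WT, 6.98 on the array labelled mutant 1, and 5.85 and 5.60 on mutant arrays 2 and 3. Among the other 5 genes of the set, Sall2 came closest to Pou3f1, at place 180 of 11520, and Sox3 came at place 389. Foxd3 came at place 1535, Otx2 at 4397 and Fgf5 at 10518. The differences were not scaled, so these places depend on their size as well as their direction.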

How the data were processed

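Transcript levels of WT and Trip12 mut/mut embryonic stem cells were read from 5 Affymetrix arrays. The deposited values are log2 values, which the authors made with RMA, per the submitters' processing notes; the RMA version was not given in the sources used. RMA sets arrays to a common distribution, so a shift shared by all transcripts cannot be seen, and it gives no detection call. Precision is limited by the small number of arrays.

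Of 45101 probe sets, 64 controls were left out. Of the rest 34945 had 1 gene symbol, 932 several and 9160 none; 34741 symbols were updated by gene number (GRCm38.p6). Genes were tested with limma 3.58.1 in R 4.3.3 (lmFit, eBayes, genotype only, two-sided, Benjamini-Hochberg), over all 5 arrays and over 4 arrays with genes above 5.52 on at least 2 of them. The fit was run on simulated data with normal noise and no outlying array, which does not cover an array set aside for its values. Up to 4 genes with the smallest adjusted p were named per list, and paralogs above 5.52; genes named after their values were seen are marked so in the text. Listed genes without a usable probe set were not analysed here. The 6 genes, the lists and the choice of 4 arrays were made with earlier results of these data known. Alternatives were other normalisations, filters, variance models, probe set rules, a replicate block and each array left out. Figures were drawn with matplotlib 3.10.9.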

Additional observations from a re-analysis of the deposited data

How the results depend on the processing

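Over all 5 arrays 0 genes, and 0 genes of any list, passed in limma under every alternative run, each array left out included (214 genes below an unadjusted p of 0.05 in the comparison as labelled). Over 4 arrays with dim probe sets removed, the 539 calls became 998 with quantile normalisation, 1190 with centred array medians, 1461 with the mean of probe sets, and 0 both with no filter on dim probe sets and with array weights. Leaving out each array gave 0 to 4912, where a lone array is assumed to vary like the other group; the count was 0 without either WT array, 2686 without mutant array 2 and 4912 without mutant array 3. Genes called over all lists, 27 there, became 43, 46, 47, 0 and 0 in the same order, and 0 to 70 with each array left out. The 10 epiblast genes that fell became 0 with no filter and 0 with array weights, and 0 to 13 with each array left out.

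The number of the 6 genes with every mutant array below every WT array was 2 to 5 with each array left out. Their differences moved by less than the residual SD over all 5 arrays under the 10 alternatives compared, which left out array weights. That SD, 1.13 for Otx2 and 1.41 for Fgf5, includes the distance between the array labelled mutant 1 and the other mutant arrays. It is therefore a wide limit: Otx2 stayed within it while moving from -1.65 to -2.45 without that array. Fgf5 was -1.13 and Sox3 -0.18 with the mean of probe sets. With the replicate block, over numbers 1 and 2, the differences were -1.25 for Otx2, -1.66 for Fgf5, -0.53 for Pou3f1, -0.21 for Sox3, -0.26 for Sall2 and 0.01 for Foxd3, and 0 genes passed. Whether same-numbered arrays shared more than a number is not known. Their deviations from the group means correlated at -0.05 and -0.08 over genes. The deviations of the 2 WT arrays mirror each other, so these values can neither show nor exclude a shared batch. Over the 4 arrays the groups share 1 number, so no block could be fitted.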
